A study of Mus musculus with 2 samples.

Results

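Runx2, Sp7, Dlx5, Alpl, Ibsp, Bglap and Ifitm5, which mark successive steps of osteoblast differentiation, were followed here in a callus 5 days after musculoskeletal traumatic injury (MTI). These 7 genes of the 32285 counted were taken by their symbols as established genes of the lineage, with earlier results of these data known. The study examined the immune response to bone injury in C57BL6 mice of 10 to 14 weeks, males and females mixed. In MTI the tibia is fractured and the muscles around it are injured by compression, which leads to fibrous nonunion. Nuclei from the scraped periosteum and the callus of 3 or 4 mice were pooled, sorted by a DNA dye and read as 1 snRNAseq library, so the mice cannot be told apart and no replicate exists. A library of day 1 post-fracture from mice of the same strain differs in day and in injury, and was used only to look for shared barcodes and to give levels separately.

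Osteoblasts arise from progenitors of the periosteum and bone marrow, either directly or beside a cartilage template that is later replaced by bone. Runx2, a transcription factor of the Runt family, commits progenitors to the lineage and is also active in maturing chondrocytes. Sp7 (osterix) acts after Runx2 and is needed for osteoblasts to form, and the homeobox factor Dlx5 promotes bone formation from early stages. The enzyme Alpl removes the mineralization inhibitor pyrophosphate, Ibsp (bone sialoprotein) and Bglap (osteocalcin) are secreted into the mineralizing matrix, and Ifitm5 is a membrane protein of osteoblasts that are forming bone.

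The RUNX core motif ACCACA, read on both strands (TGTGGT on the other), was looked for in the 250 bases before each start, since Runx2 is itself a Runt factor. Of the 7 genes, 5 had an entry in the RefSeq promoter table (GRCm38.p6), with 6 start sites in all, and 2 of these 6 windows held the motif. It was found in 4614 of all 32851 windows of the table. The match lay 132 to 127 bases before the start of Bglap and 80 to 75 bases before that of Runx2. GENCODE places the starts of Runx2 and Ibsp elsewhere, so that 170 bases of the Runx2 window, the match among them, and 116 bases of the Ibsp window lie inside the gene. Bglap is shown whole from chr3:88384467-88384716 (minus strand), with the motif in capitals, as the member whose window held it outside the gene. Ibsp, whose counts set the pattern described below, is shown for the 134 bases outside the gene, chr5:104299037-104299170 (plus strand), which hold no match. Both run from 5′ to 3′.
Bglap: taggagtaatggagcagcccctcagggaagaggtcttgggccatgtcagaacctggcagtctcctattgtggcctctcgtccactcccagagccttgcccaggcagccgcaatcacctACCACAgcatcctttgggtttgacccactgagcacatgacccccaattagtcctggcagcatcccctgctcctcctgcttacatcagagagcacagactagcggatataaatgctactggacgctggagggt
Ibsp: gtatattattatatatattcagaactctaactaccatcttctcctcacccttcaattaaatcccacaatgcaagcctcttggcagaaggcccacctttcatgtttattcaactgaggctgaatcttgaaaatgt

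The library held 5899407 unique molecular identifiers (UMIs, each a captured RNA molecule) in 1446 barcodes, with 500 to 45740 UMIs per barcode. After the filters of the study for this dataset, 1127 nuclei with a median of 2364 UMIs remained in 13 clusters, made without the 7 genes. A cluster of 176 nuclei (15.6%) was called skeletal lineage-like from markers of progenitors, injury-induced fibrogenic cells, chondrocytes and mesenchyme such as Postn, Col2a1 and Prrx1. Tbx18, Matn3 and Col9a1 were among its leading genes, and no cluster could be called osteoblast-like, because the osteoblast markers are themselves members. Markers of pericytes and smooth muscle were also higher in this cluster than elsewhere (4 of 4, Acta2 by 10.5-fold and Myh11 by 22.8-fold). At a finer clustering (resolution 2.0) a pericyte-like cluster of 88 nuclei stood beside a skeletal cluster of 104 nuclei. The part of such cells in the levels below was not tested. Of the barcodes, 33 also occurred in the day 1 library, and 29 of these were filtered nuclei here, 1 of them skeletal. These 29 nuclei held 15 UMIs of Runx2, 1 of Alpl and 1 of Ifitm5, and leaving them out changed none of the counts of members given below.

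In the summed counts, Runx2, Sp7, Alpl and Ibsp were higher in skeletal nuclei than in the rest of the callus, and Dlx5, Bglap and Ifitm5 were near the limit of detection. Of the 4 members with at least 10 UMIs, 4 were at least 2-fold higher in skeletal nuclei than in the other 951 nuclei, where 15.6% of the 15213 genes with at least 10 UMIs passed that fold and 26.2% were at least 2-fold lower. Levels are given as UMIs per 1000000 UMIs of the nuclei (CPM). With 1 library there is no test, and the 95% intervals in parentheses, exact for sums, shares and ratios, cover counting error only.

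Runx2 was the most widely detected of the 7 genes. It had 1762 UMIs in 120 of 176 skeletal nuclei, a level of 1716 CPM (1637 to 1799), and 611 UMIs in the other nuclei, a level of 185 CPM (170.2 to 199.8). The ratio of these levels was 9.30 (8.48 to 10.2). Runx2 counts were spread over the skeletal nuclei, with a highest nucleus of 146 UMIs and 60 nuclei with at least 5 UMIs. The gene spans 319 kb at chr17:44495987-44814797, of which 2.77% is exonic, and Supt3 and antisense transcripts of Runx2 lie on its other strand. Supt3, a subunit of a transcription coactivator complex, had 241 CPM (212 to 273) in skeletal nuclei and 223 CPM (207 to 239.9) in the others. Between the deep and the shallow skeletal cluster described below it had 257 CPM (225 to 292) and 103 CPM (51.4 to 184).

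Immune-like nuclei, 483 in all, held 345 UMIs of Runx2, a level of 211 CPM (189 to 234). These counts were unevenly spread. In a lymphoid cluster of 30 nuclei, led by genes such as Pax5, Ighd and Siglech, Runx2 reached 1723 CPM (1403 to 2093), and the ratio of the skeletal level to it was 0.996 (0.815 to 1.23). Of its 101 UMIs, 83 lay in 3 nuclei with UMIs of Siglech, a marker of plasmacytoid dendritic cells, a split made after the values were seen. Those 3 nuclei had 10460.0 CPM (8331 to 12967) and the other 27 nuclei of the cluster 355 CPM (210.5 to 561). The 4 immune-like nuclei of other clusters with Siglech held 2 UMIs of Runx2 in 1 nucleus, 159.8 CPM (19.3 to 577), against 154 CPM (136 to 175) in the 449 without it. In the other clusters Runx2 ran from 34.1 CPM (13.7 to 70.3) in osteoclast-like nuclei to 499 CPM (348 to 694) in neutrophil-like nuclei, all below the skeletal interval. An endothelial-like cluster of 35 nuclei had 52 UMIs of Runx2, 50 of them in 1 nucleus that also held 2 UMIs each of Sp7 and Alpl. The same nucleus held 17 UMIs of the chondrocyte markers Acan, Col2a1, Sox9 and Fgfr3 and 7 of the immune marker Ptprc. The name of the cluster may therefore not hold for it.

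Sp7 was detected in far fewer nuclei than Runx2. It had 58 UMIs in 16 skeletal nuclei, a level of 56.5 CPM (42.9 to 73.0), against 16 UMIs in 12 of the other nuclei, a level of 4.83 CPM (2.76 to 7.85). This was a ratio of 11.7 (6.63 to 21.8), which became 3.74 with equal weight per nucleus and 1.98 with each nucleus assigned by its own marker UMIs. Immune-like nuclei held 1 UMI. A single skeletal nucleus held 26 of the 58 UMIs, while 15 nuclei held 1 to 4 UMIs each. The gene lies at chr15:102356606-102367182. Per kb of gene, Sp7 and Runx2 had levels of 5.34 and 5.38 CPM per kb in skeletal nuclei. Sp7 spans 10.6 kb and Runx2 319 kb, and the part of gene length in their shares of nuclei was not tested. Without the nucleus with 26 UMIs the level of Sp7 was 3.01 CPM per kb, and that of Runx2 without its own highest nucleus, which is the same one, was 5.04.

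Dlx5 (chr6:6877805-6882085) had 6 UMIs, all of them in 3 skeletal nuclei, 4 in the highest. Its level was 5.84 CPM (2.15 to 12.7), at least 6.45-fold higher than in the other nuclei, where it had 0 UMIs. That bound takes 3 UMIs as the floor for a sum of 0, as do the other bounds here, and the exact lower limit of the ratio, which also holds the counting error of the 6 UMIs, was 3.80. The nuclei that lacked Dlx5 may therefore hold it below the limit of detection at this depth.

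Alpl (chr4:137741733-137796384) was found in 20 skeletal nuclei with 127 UMIs, a level of 124 CPM (103 to 147). The other nuclei held 22 UMIs in 19 nuclei, 6.64 CPM (4.16 to 10.1), and the ratio was 18.6 (11.8 to 30.8), or 5.02 with equal weight per nucleus and 3.47 by own marker UMIs. One nucleus held 43 of the 127 UMIs, the next 14, and 6 of the 20 nuclei held 1. Immune-like nuclei held 2 UMIs of Alpl. Alpl RNA was thus found in about as many skeletal nuclei as Sp7 RNA, with a median of 2.5 UMIs of Alpl where it was detected.

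Ibsp (chr5:104299171-104311469) had a level of 15.2 CPM per kb, above the other members, but in the fewest nuclei of these 4 genes. That order rested on few nuclei: without the 3 nuclei with 5 or 6 members described below, Ibsp had 2.06, Alpl 1.46, Sp7 2.49 and Runx2 4.92 CPM per kb. Its 192 UMIs lay in 8 skeletal nuclei, with 119, 43, 11, 8, 5, 3, 2 and 1 UMIs. The level was 187 CPM (162 to 215), against 4.53 CPM (2.54 to 7.47) from 15 UMIs in the other nuclei, a ratio of 41.3 (24.4 to 75.2). Both highest nuclei thus carried most of the bone sialoprotein counts of the whole cluster. The ratio moved with the choice of nuclei, to 10.5 at a finer clustering (resolution 2.0), 8.83 with at least 500 genes per nucleus, 8.13 with equal weight per nucleus and 0.567, the other direction, by own marker UMIs.

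Bglap (chr3:88383501-88384464) had 7 UMIs in 2 skeletal nuclei, 5 and 2, and 1 UMI in a macrophage-like nucleus. Its neighbours Bglap2 and Bglap3, near-identical copies, had 2 and 1 UMIs in the filtered nuclei, so the counts of each copy were low. Reads that fit more than 1 copy may be missing from these counts, which was not tested. They therefore cannot show how scarce osteocalcin RNA was. Ifitm5 (chr7:140948958-140950291), which overlaps another gene model on its strand, had 3 UMIs in 2 skeletal nuclei and 2 UMIs in the other nuclei, too few to set levels against each other. By value, 5 of the 7 members had their highest level in the skeletal nuclei, and the exceptions were Runx2 and Ifitm5. Runx2 was level with the lymphoid cluster. For Ifitm5, 1 UMI each in 2 shallow clusters gave 14.3 and 5.79 CPM, above the 2.92 CPM of skeletal nuclei. Dlx5 and Bglap cannot be ranked against clusters with 0 UMIs, where 3 UMIs would be up to 55.4 CPM. The count of 5 became 2 without the 3 nuclei with 5 or 6 members, with at least 500 genes per nucleus, and by own marker UMIs.

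**Figure D1:**
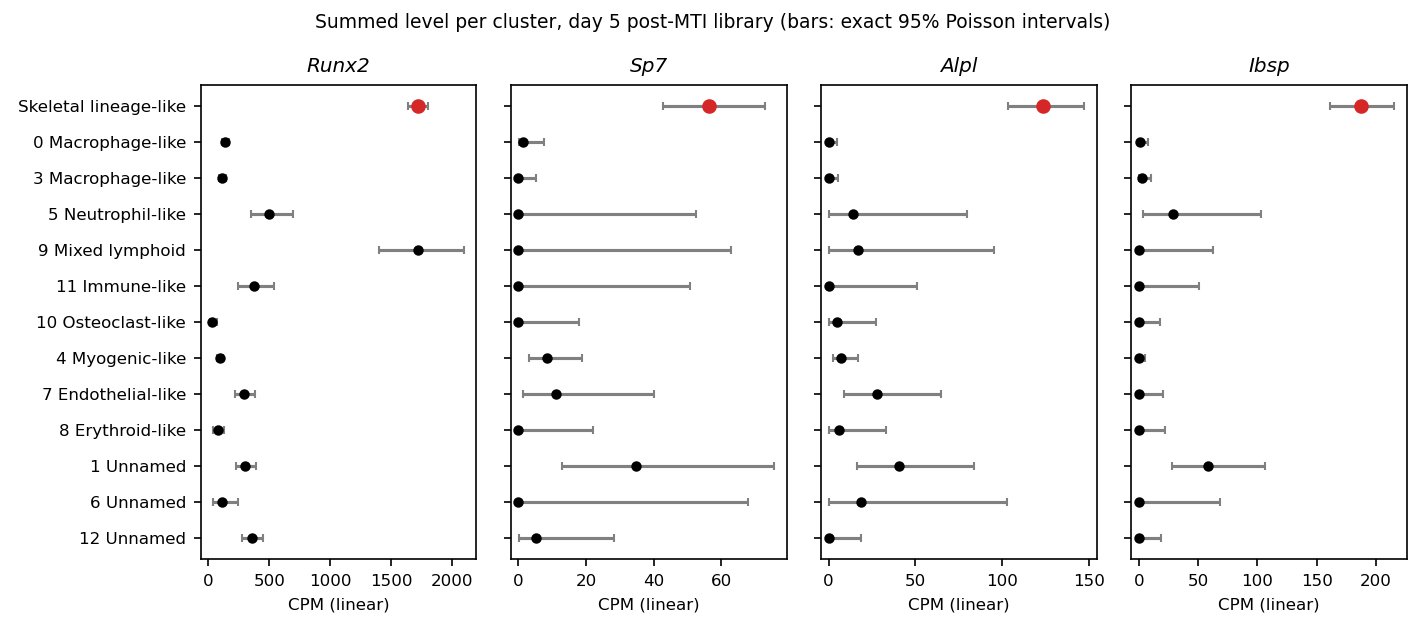
Summed level (CPM, linear axis that differs by gene) of the 4 members with at least 10 UMIs in the 13 clusters of the day 5 post-MTI library, with exact 95% Poisson intervals and the skeletal cluster in red. Sp7, Alpl and Ibsp had their highest values in skeletal nuclei, which for Sp7 and Ibsp was not so without the 3 nuclei with 5 or 6 members (26.3 and 25.3 CPM, against 34.7 and 57.9 CPM in an unnamed cluster), and Runx2 was as high in the mixed lymphoid cluster (1723 CPM) as in skeletal nuclei (1716 CPM).

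An unnamed cluster of 183 shallow nuclei (median 693 UMIs) came next to the skeletal nuclei for the later genes. It held 6 UMIs of Sp7, 7 of Alpl and 10 of Ibsp, with levels of 34.7 CPM (12.7 to 75.6), 40.5 CPM (16.3 to 83.5) and 57.9 CPM (27.8 to 106). The Sp7 intervals of this cluster and the skeletal nuclei overlapped, while those of Alpl and Ibsp did not. Without the 3 nuclei with 5 or 6 members, the skeletal levels of Sp7 and Ibsp were below those of this cluster by value only. They were 26.3 CPM (17.2 to 38.6) and 25.3 CPM (16.4 to 37.4), and both intervals overlapped those of the cluster. Alpl (80.0 CPM, 63.3 to 99.7) was above the cluster by value, with an interval that overlapped as well. No named class could be given to these nuclei.

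Depth differed between the populations, so each nucleus was also thinned to 500 UMIs. A UMI of Runx2 then remained in 34.1% of skeletal nuclei (27.1 to 41.6%) and in 10.6% of immune-like nuclei (7.96 to 13.6%), against 68.2% and 145 of 483 before thinning at medians of 3943 and 2871 UMIs. For Sp7 the thinned shares were 2.27% (0.623 to 5.72%) and 0 of 483. Against all other 951 nuclei, thinned Runx2 remained in 9.67% (7.87 to 11.7%), and thinned Sp7 in 0.421% (0.115 to 1.07%), an interval that overlaps the skeletal one. Thinned Alpl was left in 2 of 176 skeletal nuclei (1.14%) and 9 of the 951 (0.946%), and thinned Ibsp in 2 (1.14%) and 5 (0.526%), so no difference was detectable for these at 500 UMIs.

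The 176 skeletal nuclei fell into a deep cluster of 109 nuclei (median 7795 UMIs) and a shallow cluster of 67 nuclei (median 1426 UMIs). Over the whole library, Matn3, Lipi and Ptpru led the deep cluster and Pi15, Ntf3 and Epha7 the shallow one. Matn1 and Col9a1 were also among the 10 leading genes of the deep cluster. Over the other skeletal nuclei, Ibsp, Slc8a3 and Tank led it, and Matn3, Matn1 and Col9a1 were not among its 10 leading genes. The chondrocyte markers Acan, Col2a1, Sox9 and Fgfr3 summed to 1283 CPM in the deep and 608 CPM in the shallow cluster. The level in the shallow cluster rested on 1 nucleus of 2290 UMIs, which held 48 UMIs of these markers. No other nucleus there held more than 3. Only 17 of the 176 nuclei held at least 5 UMIs of these markers. Nearly all UMIs of the 7 genes lay in the deep cluster. All 58 UMIs of Sp7, 192 of Ibsp, 7 of Bglap and 3 of Ifitm5 were there, with 0 of each in the shallow cluster, and Alpl was split into 122 and 5 UMIs and Dlx5 into 5 and 1. Of the 4 members with at least 10 UMIs, 4 were at least 2-fold higher in the deep cluster, where 21.7% of 9614 genes passed that fold and 9.01% were at least 2-fold lower. The deep cluster had 919698 UMIs in all and the shallow one 106825, so the smaller counts of Bglap, Dlx5 and Ifitm5 could not have been told apart between them.

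Runx2 had 1839 CPM (1752 to 1928) in the deep and 665 CPM (519 to 838) in the shallow cluster, a ratio of 2.77 (2.18 to 3.56). After thinning to 500 UMIs its share of nuclei was 42.2% (32.8 to 52.0%) and 20.9% (11.9 to 32.6%), and these intervals did not overlap. For Alpl the ratio of levels was 2.83 (1.18 to 8.88). Sp7 was at least 2.25-fold and Ibsp at least 7.43-fold higher in the deep cluster by the floor of 3 UMIs, and the exact lower limits of their ratios were 1.77 and 5.99. Without the 3 nuclei with 5 or 6 members, all in the deep cluster, Sp7 and Ibsp had 29.5 and 28.4 CPM there, against a floor of 28.1 CPM in the shallow one, so at this depth no difference was detectable. The ratio of Runx2 was then 2.52 (1.99 to 3.25) and that of Alpl 1.80 (0.736 to 5.69).

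Within the skeletal nuclei, the late genes came together in few nuclei. Of the 176, 54 had a UMI of none of the 7 genes, 97 had 1 gene, 13 had 2, 4 had 3, 5 had 4, 2 had 5 and 1 had 6, and Runx2 was detected in all but 2 of the nuclei that had Sp7 or Alpl. This gave 25 nuclei with at least 2 genes, 14.2% (9.41 to 20.3%), against 13 of the other 951 nuclei, 1.37% (0.730 to 2.33%). That count includes Runx2, found in 68.2% of skeletal and 25.9% of other nuclei, and does not measure late genes alone. Each of the 13 skeletal nuclei with 2 genes held Runx2 and 1 other. At least 3 genes, Runx2 among them, were seen in 12 skeletal nuclei, 6.82% (3.57 to 11.6%), and 3 of the other 951, 0.315% (0.0651 to 0.919%). Depth moved with the count of nuclei with at least 2 genes. At least 2 genes were seen in 2 of 53 nuclei with 500 to 2000 UMIs, in 8 of 70 with 2000 to 8000 and in 15 of 53 with 8000 or more.

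All 16 nuclei with Sp7 and all 8 with Ibsp also had Runx2. Runx2 was itself common, in 65% of the nuclei without Sp7 and 66.7% of those without Ibsp. It was found in 47 of the 53 skeletal nuclei with 8000 or more UMIs. Depth differed too, with medians of 13072.5 UMIs with Sp7 and 3372.5 without it, so this overlap alone does not show a link. Alpl was accompanied by Sp7 in 12 of 20 nuclei (36.1 to 80.9%), while Sp7 was seen in 2.56% (0.703 to 6.43%) of the nuclei without Alpl. Ibsp was accompanied by Sp7 in 7 of 8 nuclei and by Alpl in 7 of 8. The nuclei with Alpl had a median of 7710 UMIs and those without it 3511, and the part of depth in this overlap was not tested here. Both nuclei with Bglap held Runx2, Sp7, Alpl and Ibsp as well.

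Nuclei with 3 or more members were read out individually, 20 barcodes in the whole library. Of these, 12 were skeletal nuclei, all in the deep cluster, 3 were other filtered nuclei and 5 had been removed by the filters. Some were rich in Col1a1, the main collagen of bone, with few UMIs of cartilage genes, and others were rich in cartilage genes, a description made after the values had been seen. Several held both, such as a skeletal nucleus with 49 UMIs of Col1a1 and 20 of the chondrocyte markers, and a removed barcode with 44 and 205.

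**Figure D2:**
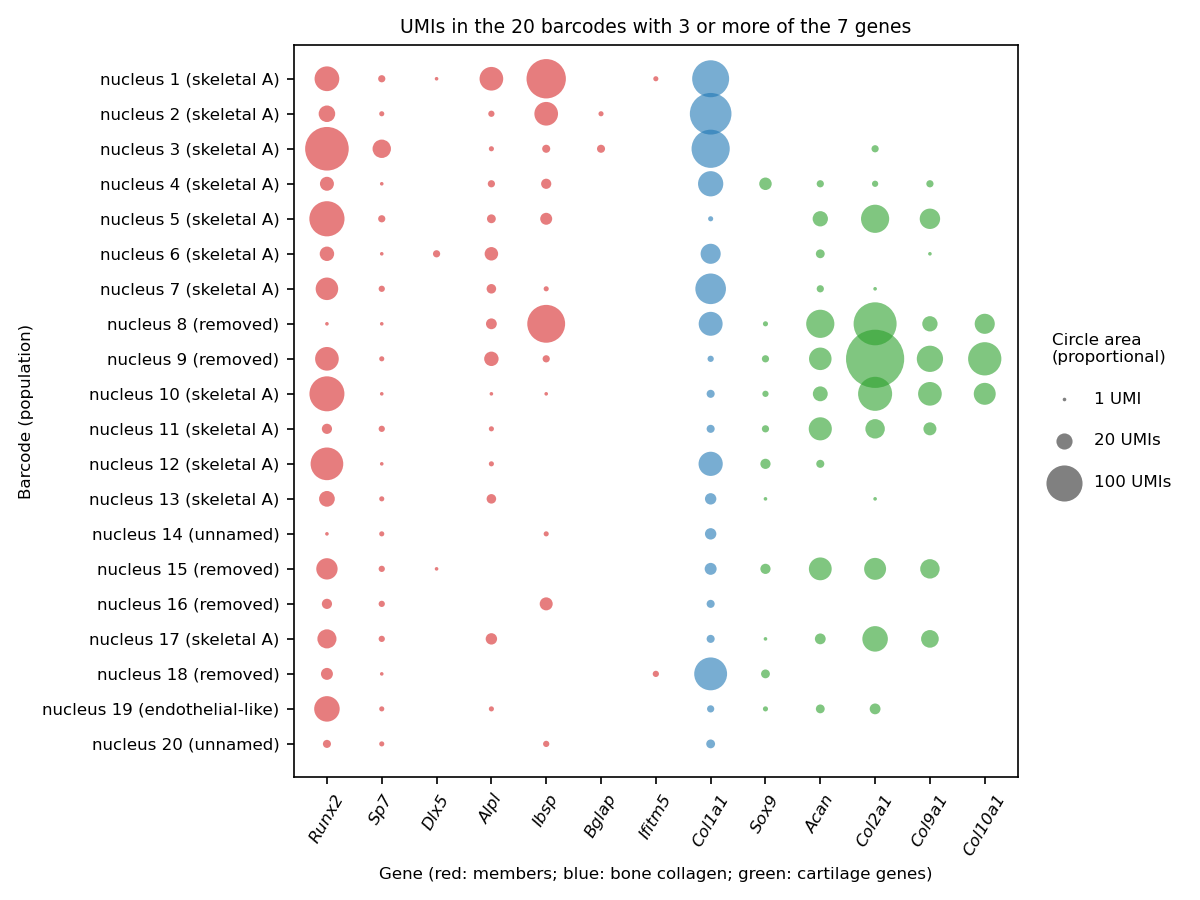
UMIs of the 7 members (red), of Col1a1 (blue) and of cartilage genes (green) in the 20 barcodes with 3 or more members; the area of a circle is proportional to the UMIs. The top 3 nuclei, with 5 or 6 members, carry 105 to 133 UMIs of Col1a1 with 0, 1 and 5 UMIs of the chondrocyte markers. Several others carry Col2a1, Acan and Col9a1, some of them beside Col1a1 (49 UMIs in nucleus 4 and 44 in nucleus 8).

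The 3 skeletal nuclei with 5 or 6 members, chosen by the counts described here, held many of the late UMIs. The first had 6 of the 7 genes, with 47 UMIs of Runx2, 4 of Sp7, 43 of Alpl, 119 of Ibsp, 1 of Dlx5 and 2 of Ifitm5 among 12577 UMIs. The second had 5 genes, with 21 UMIs of Runx2, 2 of Sp7, 3 of Alpl, 43 of Ibsp and 2 of Bglap among 5980 UMIs. The last also had 5, with 146 UMIs of Runx2, 26 of Sp7, 2 of Alpl, 5 of Ibsp and 5 of Bglap among 20473 UMIs.

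These 3 nuclei held 105, 133 and 112 UMIs of Col1a1 in the same order, and 0, 1 and 5 UMIs of the 4 chondrocyte markers Acan, Col2a1, Sox9 and Fgfr3. The order of the late genes differed between them. Ibsp made up 9462 CPM of the first and 7191 CPM of the second nucleus but 244 CPM of the last, whereas Sp7 had its highest level, 1270.0 CPM, in the last. Col5a2 was found in all 3 (48, 22 and 68 UMIs), Postn in 1 of them (2 UMIs), and Mylk, a gene of the pericyte list, in all 3 (7, 5 and 6 UMIs). The counts of immune markers in them were 0, 0 and 1 UMI.

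The summed levels leaned on these 3 nuclei to different degrees. They held 12.1% of the skeletal UMIs of Runx2, 37.8% of Alpl, 55.2% of Sp7, 87.0% of Ibsp and 100% of Bglap. Without them the ratio to the other nuclei became 8.49 (7.73 to 9.34) for Runx2, 12.04 (7.43 to 20.3) for Alpl, 5.45 (2.81 to 10.9) for Sp7 and 5.59 (2.83 to 11.4) for Ibsp. Each of these 4 intervals stayed above 2, while the level of Ibsp fell from 187 to 25.3 CPM (16.4 to 37.4) and that of Sp7 from 56.5 to 26.3 CPM (17.2 to 38.6).

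**Figure D3:**
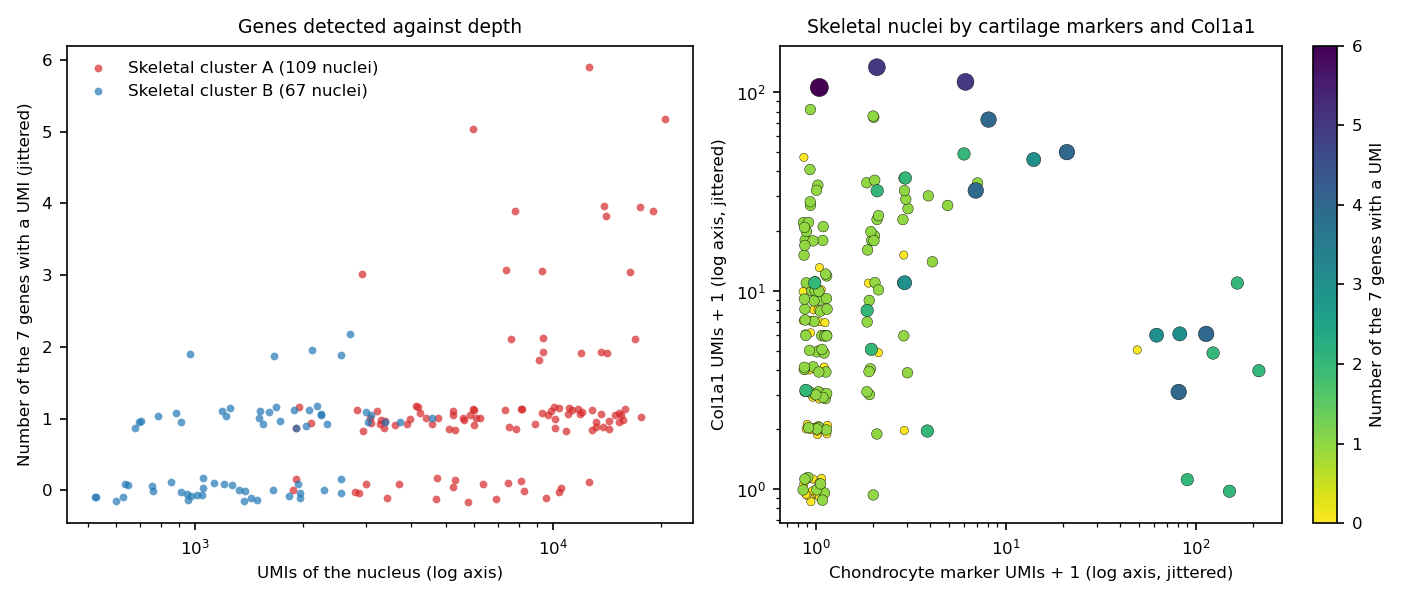
The 176 skeletal nuclei by the number of members detected against depth (left, log axis) and by chondrocyte marker UMIs against Col1a1 UMIs (right, log axes, each plus 1), both with jitter. Nuclei with 5 or 6 members lie at 105 to 133 Col1a1 UMIs and 0 to 5 chondrocyte marker UMIs. Of the 22 nuclei with 2 to 4 members, 8 had 0 to 3 marker UMIs, 4 had 5 to 13 and 10 had at least 20.

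Many of the remaining nuclei with several members carried cartilage genes. Of the 22 nuclei with 2 to 4 members, 14 had at least 5 UMIs of the 4 chondrocyte markers and 8 had fewer. Of the 16 nuclei with Sp7, 13 had at least 5 such UMIs, a limit set with the values in view, and 9 had at least 20. The nucleus with 26 UMIs of Sp7 lies exactly at the limit and counts on the cartilage side. Of the 176 skeletal nuclei, 17 reached 5 such UMIs and 11 reached 20. These 17 held 50 UMIs of Sp7 in 13 nuclei, 59 of Alpl in 10 and 27 of Ibsp in 5, while the other 159 held 8 of Sp7 in 3 nuclei, 68 of Alpl in 10 and 165 of Ibsp in 3. The level of Ibsp was thus lower in the 17 nuclei, at 122 CPM (80.7 to 178), than in the 159, at 205 CPM (175 to 238). That order turned without the 3 nuclei with 5 or 6 members. Ibsp then had 110 CPM (68.9 to 167) in 16 nuclei with cartilage genes and 3.81 CPM (0.786 to 11.1) in the 157 others. Without the nucleus at the limit, the nuclei with cartilage genes held 24 UMIs of Sp7 in 12 of 16 nuclei.

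For Sp7 and Alpl a like split in detection was seen among nuclei of similar depth. Among skeletal nuclei with at least 8000 UMIs, 14 had at least 5 chondrocyte marker UMIs (median 14068 UMIs) and 39 had fewer (median 11293 UMIs). Sp7 was detected in 11 of the 14, a share of 49.2 to 95.3%, and in 1 of the 39, a share of 0.0649 to 13.5%. Alpl was detected in 8 of the 14 (28.9 to 82.3%) and in 1 of the 39 (0.0649 to 13.5%). The 1 nucleus among the 39 was for both genes the nucleus with 6 members. Ibsp was detected in 4 of the 14 and 2 of the 39, intervals of 8.39 to 58.1% and 0.627 to 17.3% that overlap. Its levels had the opposite order, 78.8 CPM (45.04 to 128) in the 14 and 268 CPM (222 to 320) in the 39. Of the 122 UMIs of Ibsp in the 39, 119 lay in the nucleus with 6 members, so this order rested on that nucleus.

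Runx2 did not divide the nuclei in this way. It was present in 14 of the 14 and in 33 of the 39, at 3433 CPM (3182 to 3697) and 1468 CPM (1359 to 1584). Its level was thus higher beside cartilage genes, while most deep nuclei without them had Runx2 and no UMI of the other 6 genes.

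**Figure D4:**
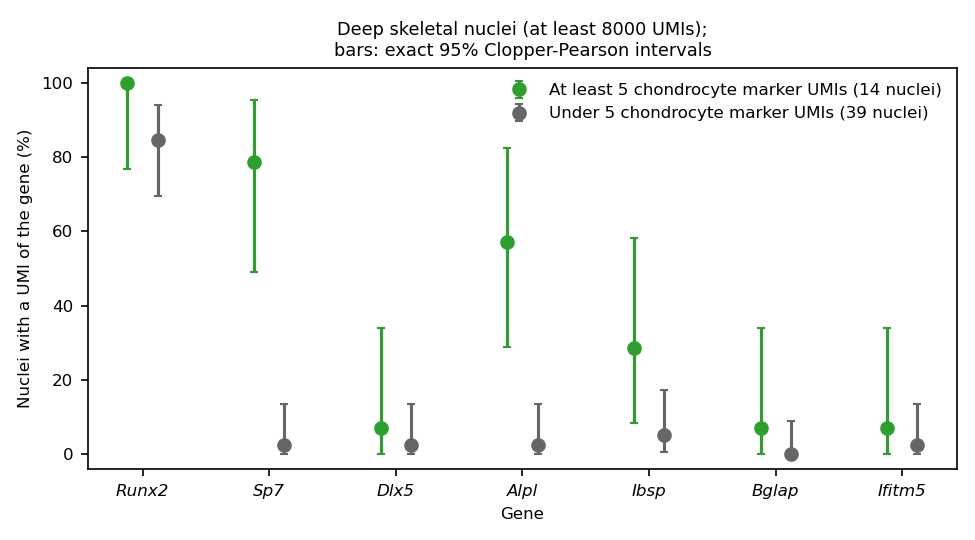
Share of skeletal nuclei with at least 8000 UMIs in which each member was detected (percent, exact 95% Clopper-Pearson intervals), for 14 nuclei with at least 5 chondrocyte marker UMIs (green) and 39 nuclei with fewer (grey). Sp7 and Alpl were seen in 11 and 8 of the 14 nuclei and each in 1 of the 39, while Runx2 was seen in most nuclei of both groups.

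Col10a1, the collagen of hypertrophic cartilage, was found in 3 skeletal nuclei. All 3 had Runx2 (153 UMIs), 2 had Alpl (12 UMIs), and 1 had a UMI each of Sp7 and Ibsp. Their Runx2 level was 5783 CPM (4903 to 6775), against 1609 CPM (1531 to 1689) in the skeletal nuclei without Col10a1. Of the 153 UMIs, 94 and 58 lay in 2 nuclei and 1 in the last, so this level rested on 2 nuclei. Levels of Sp7 and Ibsp rested on 1 UMI and cannot be set apart from those of the other nuclei.

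Part of the late signal lay outside the filtered nuclei. The filters removed 319 barcodes with 26.5% of all UMIs of the library, and these held 26.6% of the Runx2 UMIs of the library, 18.7% of Sp7, 23.2% of Alpl and 138 of the 345 UMIs of Ibsp. Runx2 thus lay at the share of all UMIs, and Sp7 and Alpl lay below it by value only. Their intervals in removed barcodes, 6.34 to 17.4 and 21.0 to 38.5, overlapped those in kept nuclei, 13.4 to 21.4 and 29.1 to 40.3 CPM. Ibsp lay above the share of all UMIs through 1 barcode. That removed barcode, with 2.06% ribosomal UMIs against a limit of 2%, held 110 Ibsp UMIs, with 9 UMIs of Alpl and 1 each of Sp7 and Runx2. It had 142 UMIs of Col2a1, 61 of Acan, 31 of Col10a1 and 44 of Col1a1, so the second-highest Ibsp count in the library stood beside hypertrophic cartilage genes. Another, removed at 6.91% mitochondrial UMIs, held 43 UMIs of Runx2 and 16 of Alpl with 260 of Col2a1 and 85 of Col10a1.

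**Figure D5:**
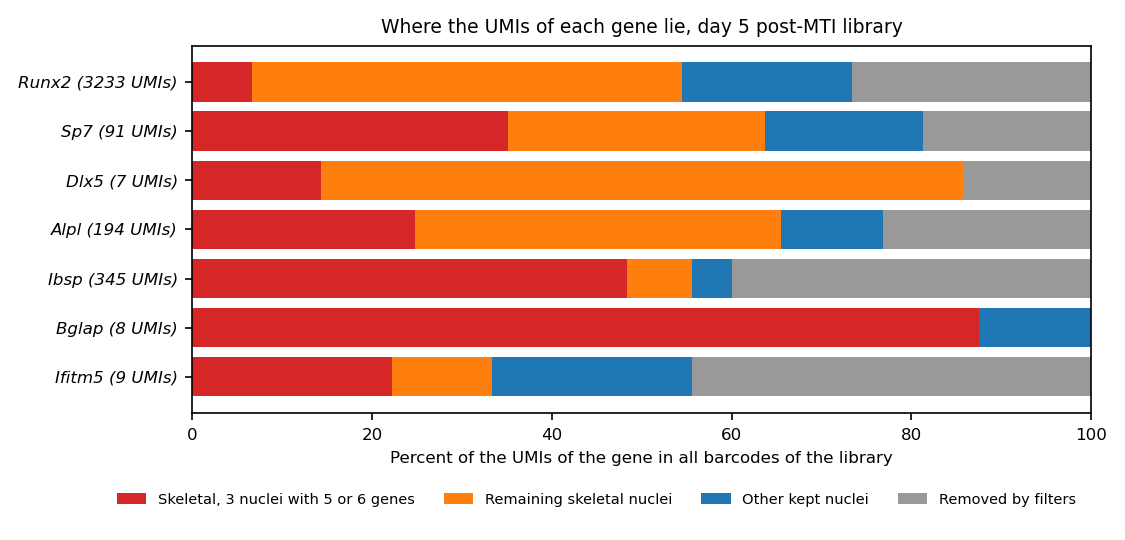
Share of all UMIs of each member in the day 5 post-MTI library (percent) that lie in the 3 skeletal nuclei with 5 or 6 members, the remaining skeletal nuclei, the other filtered nuclei and the barcodes removed by the filters. Removed barcodes hold 138 of the 345 Ibsp UMIs and 0 of Bglap, and the 3 nuclei hold 7 of the 8 Bglap UMIs.

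The wider lists of the lineage moved unevenly. Among all 15213 genes with at least 10 UMIs, 15.6% were at least 2-fold higher in skeletal nuclei and 26.2% at least 2-fold lower. Of 12 osteoblast transcription factors and partners, 9 had at least 10 UMIs, 4 of these were at least 2-fold higher and 1 lower in skeletal nuclei, and the median ratio over the list was 1.44, where the median over all genes was 0.880. The ratio was 1.22 (1.15 to 1.29) for Runx1, a Runt factor known from blood cells, and 1.13 (0.977 to 1.30) for Cbfb, the partner of Runt factors. It was 1.44 (1.07 to 1.92) for Atf4 and 0.656 (0.408 to 1.01) for Runx3, a Runt factor of lymphocytes. Against immune-like nuclei alone, Runx1 was also higher in skeletal nuclei, with a ratio of 1.56 (1.46 to 1.68).

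Of 15 genes of bone matrix and mineralisation, 9 had at least 10 UMIs, 6 were at least 2-fold higher and 1 was lower. Over all genes these shares were 15.6% and 26.2%. Col1a2, Col1a1, Sparc and Smpd3 were 34.7-fold, 21.3-fold, 10.7-fold and 52.3-fold higher, the last being an enzyme needed for mineral deposition. The lower gene was Spp1 (osteopontin), with a ratio of 0.211 (0.171 to 0.259), which macrophages also make. Of genes known from osteocytes, named after their values were seen, skeletal nuclei held 20 UMIs of Phex, with a ratio of 1.43 (0.802 to 2.48), 2 of Dmp1 and 0 of Sost and Mepe.

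Of 9 receptors and signals, 9 had at least 10 UMIs and 6 were at least 2-fold higher. The genes of this list with the most UMIs were the cadherins Cdh11 (42.7-fold) and Cdh2 (8.90-fold), then Fgfr1 (3.47-fold). Fgfr2 came next in UMIs but was not among the 6 (1.66-fold). Of 8 further cartilage genes, 7 had at least 10 UMIs and 5 were at least 2-fold higher, among them Sox5 (20.0-fold), Col9a1 (102-fold) and Matn3 (106-fold), with Sox6 at 1.23-fold. For both lists the share over all genes with at least 10 UMIs was 15.6%. Between both skeletal clusters, Col1a1 differed little, with a ratio of 1.07 (0.927 to 1.23), whereas Smpd3 was 11.2-fold (3.79 to 54.6) higher in the deep one.

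The genes most like each member across the 13 clusters were found by Pearson's r of log2(CPM + 10), as a description only, since all points share the library and differ in depth. They were Stk39 for Runx2 (r = 0.879), Bmp5, a bone morphogenetic protein, for Sp7 (r = 0.965), Dlc1 for Alpl (r = 0.943) and Gm13832 for Ibsp (r = 0.978). The next most like were Sesn3 and Hmgcll1 for Runx2, Greb1l and Pappa for Sp7, Slit2 and Magi2 for Alpl, and Mfap5 and Meis2 for Ibsp.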

How the data were processed

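The authors counted reads of the day 5 post-MTI library with Cell Ranger 7.0.1 on mm10, with intronic as well as exonic reads. They deposited the raw counts of UMIs. The labels name a human reference, but all 32285 identifiers are mouse ones. Members and lists were chosen with earlier results of these data known.

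The limits of the study (200 to 5000 genes, mitochondrial UMIs below 5%, ribosomal below 2%) were applied, and nuclei were clustered in Seurat 5.3.0 (R 4.3.3) on 2000 variable genes, without the members and wider lists, with 30 components and resolution 1 (skeletal nuclei 15 and 0.5). Names needed 3 markers with 3 UMIs and a 1.5-fold excess. The study also removed myogenic cells (99 nuclei in the myogenic-like cluster here) and integrated other datasets, not used here. Cluster names were rebuilt. The limits of 5 chondrocyte marker UMIs and 8000 UMIs, and the nuclei with 5 or 6 members or with Siglech, were set after the values were seen. One gene of a wider list is not reported here. Scrublet (scanpy 1.11.5), set to an expected doublet rate of 0.05, marked 3 of 1127 nuclei (0.266%). Whether it missed doublets was not tested, and the marked nuclei were kept.

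Counts were summed and divided by the total per population. Intervals (95%) are exact Poisson, Clopper-Pearson and conditional binomial. Those of the ratios were tested on simulated Poisson sums, which leave out the gathering of UMIs in single nuclei. All 7 members were named, and of each wider list the 4 genes with the most skeletal UMIs. Gene positions are from GENCODE vM21, which gave a length for 99.8% of genes. Its release may differ from the annotation the authors used. Sums and intervals were computed with scipy 1.17.1, pandas 2.3.3 and numpy 2.4.6 under Python 3.11.15. Alternatives varied clustering, filters, doublets, weighting and thinning.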

Additional observations from a re-analysis of the deposited data

Results flagged for a closer look

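Counts of the members outside the nuclei compared above were above the 3 UMIs that a count of 0 allows. In the barcodes removed by the filters there were 860 UMIs of Runx2, 17 of Sp7, 45 of Alpl, 138 of Ibsp and 4 of Ifitm5. A single barcode held 110 of the 138 UMIs of Ibsp.

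In the day 1 post-fracture library, 2405 barcodes passed the limits of the study, with a median of 409 UMIs. The study, which also removed myogenic cells, reported fewer nuclei for that dataset. Whether all 2405 barcodes are nuclei was not tested. They held 123 UMIs of Runx2, 4 of Sp7, 64 of Alpl and 7 of Ibsp. Alpl had 53.2 CPM (41.0 to 68.0) in these barcodes and 104 CPM (96.3 to 112) in the 43464 barcodes with under 200 genes of the same library, whereas Runx2 had 102 CPM (85.0 to 122) and 120.5 CPM (112 to 129). The 2405 barcodes, themselves shallow, were thus lower for Alpl than those with under 200 genes, and the intervals overlapped for Runx2.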

How the results depend on the processing

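No paired analysis was possible because each condition has 1 library, and for the same reason no replicate could be left out. Of the recomputed counts and shares, 51 stayed within 1.5 times the main count or within the interval of the main share, and 6 did not. Some of the 51 could not move: the limit of UMIs per gene does not enter the counts of members. Resolution 0.5 gave a skeletal cluster of the same 176 nuclei in number, with the same levels. Of the recomputed levels and ratios of single members, 105 stayed within the main interval, 33 left it and 4 ratios turned to the other direction. The number of members at their highest level in skeletal nuclei, 5 of 7, became 2 with at least 500 genes per nucleus, 2 with each nucleus assigned by its own marker UMIs and 2 without the 3 skeletal nuclei with 5 or 6 members, an alternative chosen after seeing the data. With members of few UMIs counted too, 7 of 7 were at least 2-fold higher in skeletal nuclei. Of 24455 genes with at least 1 UMI, 16.6% passed that fold. The number of members became 3 with own marker UMIs. That setting put the 3 nuclei in the pericyte class through Mylk, and it turned the ratio of Ibsp to 0.567 and that of Bglap to 0. The ratio of Bglap was also 0 without the 3 nuclei, and that of Ifitm5 was 0.406 with equal weight per nucleus. With resolution 2.0 or at least 500 genes, the nucleus with 43 UMIs of Ibsp left the skeletal cluster, and the ratio of Ibsp became 10.5 or 8.83. That nucleus joined a pericyte-like cluster of 88 nuclei at resolution 2.0 and an unnamed cluster of 60 with at least 500 genes. With equal weight per nucleus the ratios of Runx2, Sp7, Alpl and Ibsp were 5.12, 3.74, 5.02 and 8.13. Thinning to 1000 UMIs left 12 of 156 nuclei with at least 2 members, where 25 of 176 had them at full depth. The share of skeletal nuclei with any member was 35.8% when thinned to 500 UMIs and 54.5% when thinned to 1000. With resolution 2.0 only 1 skeletal cluster of 104 nuclei was found, so the comparison of clusters could not be made there. The number of members at least 2-fold higher in the deep cluster by value, 6 of 7, was 4 without the 3 nuclei. Of 18011 genes with at least 1 UMI in skeletal nuclei, 43.0% passed that fold in the main setting. The members with few UMIs thus add little to the 6. Nuclei in which a member was not detected may hold it below the depth reached here.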
